A study of Mus musculus with 16 samples.

Results

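Among the genes that differed between morning and evening in duodenal eosinophils were 10 of the NF-kB response: the subunit genes Nfkb1 and Rel, the inhibitor gene Nfkbie, the inflammatory target genes Cxcl2, Cxcl3, Ccl4 and Ptgs2, and the early-response genes Zfp36, Btg2 and Ier5. These 10 were chosen by name from the 1413 genes that the authors listed as changed in either of 2 tables, so the values that put them there are given as a description, without a test. The study sequenced polyadenylated RNA of mouse eosinophils, sorted from the connective tissue under the epithelium of the duodenum (lamina propria), 1000 cells per library. Its 16 libraries form 4 groups of 4. They are CD11c-high cells at ZT3 (AM), CD11c-high cells at ZT15 (PM), CD11c-low cells at ZT3 and CD11c-low cells at ZT15, where ZT (zeitgeber time) counts hours after lights on and CD11c is an integrin chain on the cell surface. No treatment or genotype separates the groups, and the strain, age and sex of the mice were not given in the sources used here.

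NF-kB is a family of dimeric transcription factors that inhibitor proteins of the IkB family hold in the cytoplasm. When receptors for microbes or cytokines signal, the inhibitors are degraded, the dimers enter the nucleus, and genes for chemokines, cytokines and prostaglandin enzymes are transcribed together with genes that end the response. Many of these messages are short-lived, because AU-rich elements in their 3' UTRs are bound by tristetraprolin, the protein of Zfp36, which recruits deadenylases that shorten the poly(A) tail. Eosinophils are granulocytes that reside in the small intestine in health and release chemokines, cytokines and lipid mediators.

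The sequences below show 2 features known from many genes of this response, a kappaB match near the start of a gene and an AU-rich element in the 3' UTR. Only letters were matched, and binding was not measured. Neither was searched to choose the genes. They were chosen by name as genes of this response, so the counts below describe the choice and are no independent evidence. The promoter windows come from RefSeq on build GRCm38.p6 and run from 250 bases before to 50 after the start. The expression tables carry no coordinates, and their notes name GRCm39. Windows were matched by symbol for 8 of the 10 genes, that is all but Nfkb1 and Ccl4. Each was searched on both strands for the 10-letter kappaB consensus. A match was found in 4 of the 8, namely Rel, Nfkbie, Cxcl2 and Cxcl3, whereas 4.51% of 32851 windows of the same length hold one. Among the listed genes of the CD11c-low table with a window, 8.31% of 1011 had a match. That share counts genes, with a match in any window of the gene, so it is not comparable with the share of windows.

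The windows of Cxcl2 and Cxcl3 are printed whole, because these 2 chemokine genes on chromosome 5 share the kappaB letters and moved in opposite directions. Cxcl2 lies at chr5:90903649-90903948 and Cxcl3 at chr5:90785851-90786150, both on the plus strand. Capitals mark the kappaB match, which in both is a pair of overlapping matches, 1 on each strand.
Cxcl2: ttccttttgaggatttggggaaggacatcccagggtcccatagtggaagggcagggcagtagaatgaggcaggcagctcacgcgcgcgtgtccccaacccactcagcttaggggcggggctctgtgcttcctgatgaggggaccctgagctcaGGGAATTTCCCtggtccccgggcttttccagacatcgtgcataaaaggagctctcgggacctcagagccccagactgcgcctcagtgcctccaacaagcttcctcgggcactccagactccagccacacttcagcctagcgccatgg
Cxcl3: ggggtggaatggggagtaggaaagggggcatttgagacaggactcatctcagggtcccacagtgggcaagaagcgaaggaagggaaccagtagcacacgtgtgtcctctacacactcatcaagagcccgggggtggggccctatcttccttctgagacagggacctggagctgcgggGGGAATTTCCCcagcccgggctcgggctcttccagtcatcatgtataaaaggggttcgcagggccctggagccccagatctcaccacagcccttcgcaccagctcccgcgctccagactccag
The match begins at position -97 in Cxcl2 and at -73 in Cxcl3, counted from the start. In a global alignment 205 of 340 columns of the 2 windows were identical (60.3%).

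The stretches with the match in the windows of Rel and Nfkbie are shown with 20 bases on each side, because the products of these genes are themselves an NF-kB subunit and an inhibitor of NF-kB. The Rel stretch is at chr11:23771031-23771081 on the minus strand and the Nfkbie stretch at chr17:45555574-45555623 on the plus strand, both on GRCm38.p6 and upstream of the start.
Rel: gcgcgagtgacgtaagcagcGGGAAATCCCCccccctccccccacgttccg
Nfkbie: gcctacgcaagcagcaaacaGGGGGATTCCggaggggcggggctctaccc
The first begins at position -92 and the second at -106. No exact match was found in the windows of Ptgs2, Zfp36, Btg2 and Ier5, which says only that these letters are not in these 300 bases.

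The heptamer TATTTAT, the core of the sequence that tristetraprolin binds, was searched on the sense strand of the longest 3' UTR annotated for each gene in GENCODE M21. It was present in 7 of the 10 genes, all but Nfkb1, Nfkbie and Ier5, and in 27.6% of 20999 protein-coding genes with an annotated 3' UTR. Among genes listed in CD11c-low cells that have an annotated 3' UTR, 32.1% of 1263 held it. Stretches of 30 bases with the most heptamers in capitals (overlapping ones run together) are printed for the 4 genes whose count is least common for the length of their 3' UTR, the 2 CXC chemokines, Ptgs2 and Zfp36 itself.
Cxcl2: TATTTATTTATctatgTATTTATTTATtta
Ptgs2: tctactgaccaTATTTATTTATTTATgtga
Zfp36: TATTTATgacgacttTATTTATtgtattaa
Cxcl3: ttatcagttgtTATTTATtgaaatggtctt
The stretches begin 883, 4, 575 and 419 bases after the stop codon, in that order.

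Longer 3' UTRs hold any heptamer more often, so each count was set beside genes whose 3' UTR is within 1.2 times its length. Cxcl2 had 7 heptamers in 1494 bases, and 0.194% of 2581 genes of like length have as many. The shortest annotated 3' UTR of Cxcl2, of 734 bases, also holds 7. Ptgs2 had 6 in 2445 bases, as many as 0.859% of 2327 genes. Zfp36 had 3 in 774 bases, as many as 1.28% of 2187, and Cxcl3 had 2 in 645 bases, as many as 3.57% of 2047. Ccl4 had 1 in 302 bases, where 8.26% of genes of like length have at least 1. For Rel, with 2 in 5418 bases, and Btg2, with 1 in 2199 bases, such counts are common, at 38.4% and 43.1% of genes of like length.

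**Figure D1:**
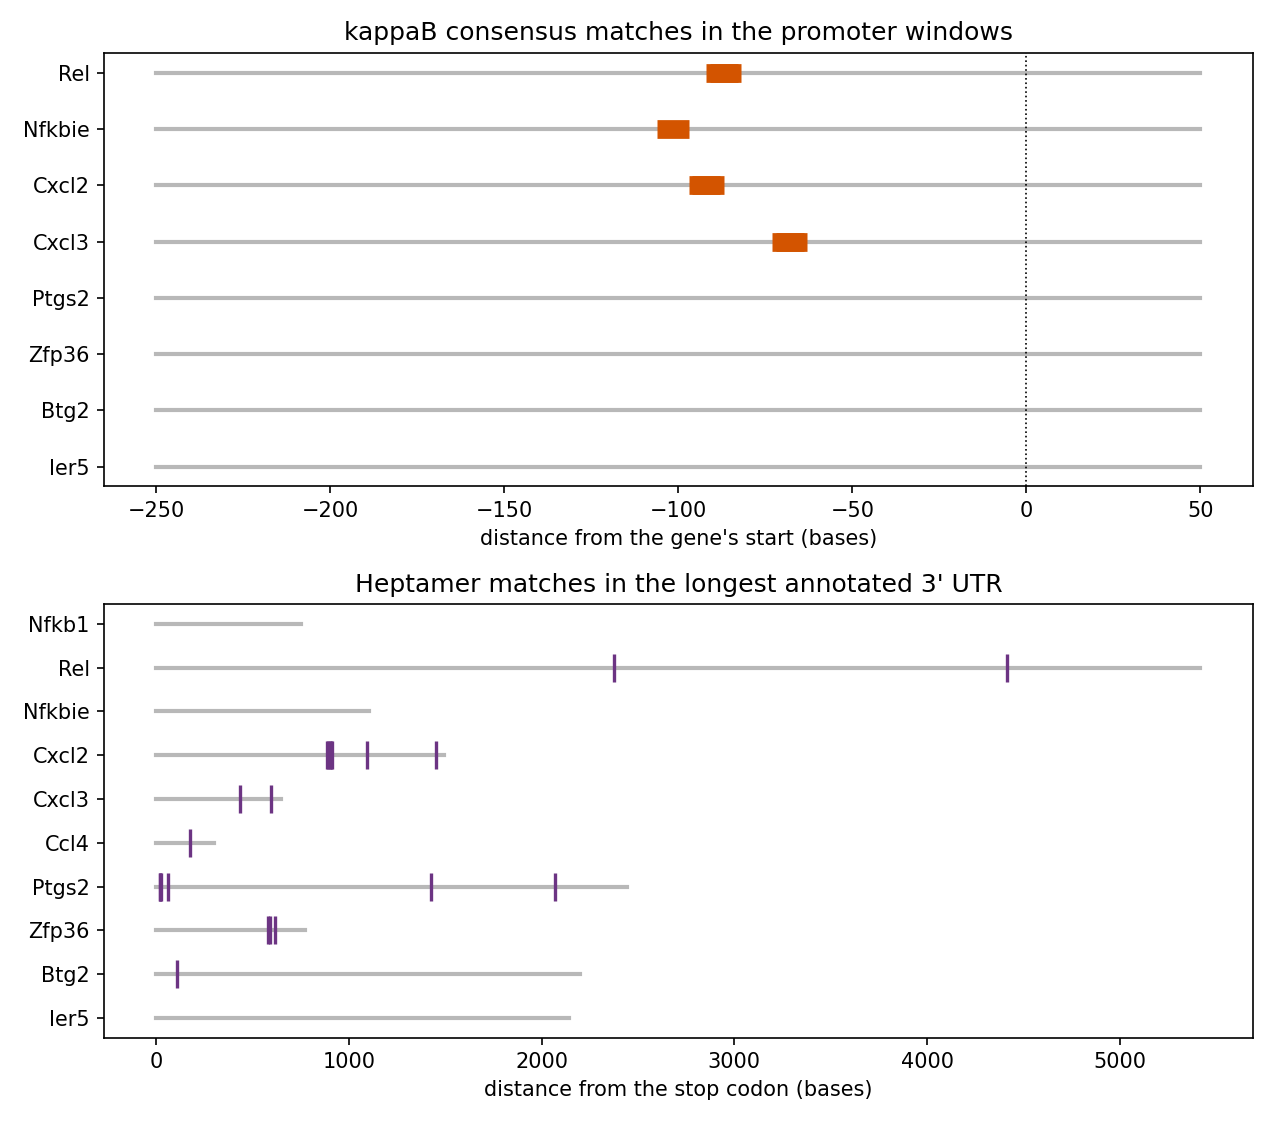
Upper panel: kappaB consensus matches (orange blocks) in the promoter windows of 8 genes, by distance from the gene's start in bases. Lower panel: heptamers (purple ticks) along the longest annotated 3' UTR of all 10 genes, by distance from the stop codon in bases. The 4 kappaB matches lie between positions -106 and -63, and the heptamers of Ptgs2 crowd just after the stop codon.

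All expression values below come from the authors' comparison of ZT15 with ZT3 within a subset. A log2 fold change above 0 means more at ZT15. DESeq2 gives s-values only with shrunken estimates, those pulled towards 0, so the fold changes are read as shrunken and their errors (±) as posterior standard deviations. Which method was used is not known, and 19 genes listed in CD11c-low cells have fitted changes over 2 in size. The s-value gives how many signs are expected to be wrong, as a share, up to and including that gene, and every listed gene has one under 0.05. Values of single libraries were not analysed here, so whether the groups overlap is not shown. In sorted bulk samples, fewer cells of a type and less RNA per cell cannot be told apart.

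In CD11c-low eosinophils 9 of the 10 genes were listed, 4 higher at ZT15 (Nfkb1, Cxcl3, Ccl4, Btg2) and 5 lower (Rel, Cxcl2, Ptgs2, Zfp36, Ier5). Of all 1340 genes that the authors' deposited table holds for these cells, 52.2% were higher and 47.8% lower. The subunits, the chemokines and the mRNA decay regulators each held genes of both directions. The median log2 fold change of the 9 in the authors' deposited table was -0.24, against 0.21 over all genes listed there. Listed genes seldom lie near 0, so such a median takes the sign of the more frequent direction, here 5 lower against 4 higher. In CD11c-high eosinophils Nfkbie was the 1 gene of the 10 that was listed, and it was higher, like 54.1% of the 172 genes there. No gene of the 10 was in both tables. A gene that is missing from a table was either not called or not tested, so its change there was not analysed here, and no difference between the subsets can be read from this.

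**Figure D2:**
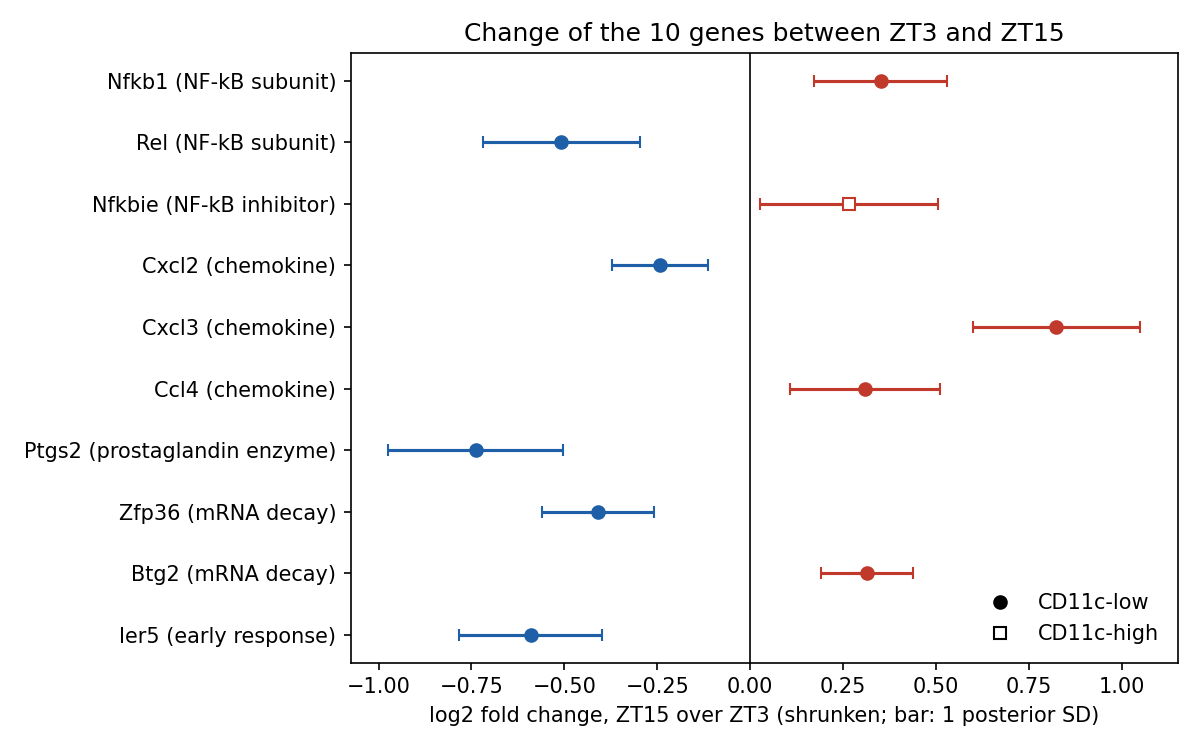
Shrunken log2 fold change at ZT15 over ZT3 for each of the 10 genes, with bars of 1 posterior standard deviation (circles, CD11c-low; open square, CD11c-high; red, higher; blue, lower). Cxcl3 (0.82) and Ptgs2 (-0.74) lie at the 2 ends, and Nfkbie has a bar that nearly reaches 0.

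The 2 NF-kB subunit genes moved in opposite directions in CD11c-low cells. Rel encodes c-Rel, a subunit with its own activation domain, and Nfkb1 encodes the precursor of a DNA-binding subunit that lacks one and that as a homodimer can repress. Rel (ENSMUSG00000020275.10) had a mean normalised count of 2793 and fell by 0.51 ± 0.21 in the authors' deposited table (s-value 0.00141), a level 0.703 times that at ZT3. Nfkb1 (ENSMUSG00000028163.18), at a mean normalised count of 495, rose by 0.35 ± 0.18 in the authors' deposited table (s-value 0.00663), a fold of 1.28. The change of Rel lay 2.40 standard deviations from 0 and that of Nfkb1 1.95. Of the 5 subunit genes, Nfkb2, Rela and Relb were listed in neither table.

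Nfkbie encodes IkB epsilon, an inhibitor that holds Rel-containing dimers in the cytoplasm and is itself made in response to NF-kB. In CD11c-high cells Nfkbie (ENSMUSG00000023947.9) rose by 0.27 ± 0.24 in the authors' deposited table, a fold of 1.20 at a mean normalised count of 112. Its s-value of 0.0463 ranks 157 of 172 in the authors' deposited table, close to the limit of the listing. Its own false sign rate, recovered from successive s-values, was 0.0847, and its change lay 1.11 standard deviations from 0. That rate was the highest of the 10.

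The chemokine genes also split. Cxcl2 and Cxcl3 encode ligands of the neutrophil receptor Cxcr2, and Ccl4 encodes a chemokine that draws monocytes and T cells. In CD11c-low cells Cxcl3 (ENSMUSG00000029379.11) rose by 0.82 ± 0.22 in the authors' deposited table, a fold of 1.77, with an s-value of 1.58e-05. That is rank 60 of 1340 by s-value, and 3.66% of the genes in the authors' deposited table changed more. Cxcl2 (ENSMUSG00000058427.11) fell by 0.24 ± 0.13 in the authors' deposited table (s-value 0.00947), to 0.846 times its level at ZT3. The change of Cxcl2 was small, since 89.5% of the listed genes changed more, but at 18216 its mean normalised count was exceeded by 0.448% of them in the authors' deposited table. Ccl4 (ENSMUSG00000018930.4) rose by 0.31 ± 0.20 (fold 1.24, s-value 0.0207) in the authors' deposited table, and its own false sign rate was 0.0563.

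Cxcl2 and Cxcl3 are paralogs, and reads from stretches they share could be assigned to either. Of all windows of 36 bases in the longest coding transcript of each, 4.11% for Cxcl2 and 7.65% for Cxcl3 also occur in the other gene. With windows of 50 bases the shares were 3.37% and 6.31%. How reads with several matches were counted, and the read length, were not given in the sources used here. The mean normalised counts were 1219 for Cxcl3 and 18216 for Cxcl2 in the authors' deposited table, and the part of shared reads in either value was not tested. For the other genes, except Rel (0.458%) and Zfp36 (3.92%), no window of 36 bases occurs in a transcript of another gene.

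Ptgs2 encodes the inducible cyclooxygenase, which makes the precursor of prostaglandins. In CD11c-low cells Ptgs2 (ENSMUSG00000032487.9) fell by 0.74 ± 0.23 in the authors' deposited table (s-value 1.31e-04), which is 0.599 times its level at ZT3. Only 5.52% of the genes in the authors' deposited table changed more. Its mean normalised count was 330 in the authors' deposited table, close to the median of 332 over listed genes. The change of Ptgs2 lay 3.14 standard deviations from 0, next to that of Cxcl3 at 3.67.

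The early-response genes Zfp36, Btg2 and Ier5 were split in the same way. Zfp36 (ENSMUSG00000044786.7), whose product marks AU-rich messages for decay, fell by 0.41 ± 0.15 in the authors' deposited table (fold 0.753, s-value 5.88e-04, mean normalised count 2098). Btg2 (ENSMUSG00000020423.7) encodes an antiproliferative protein that binds deadenylases and speeds poly(A) shortening. Btg2 rose by 0.31 ± 0.12 in the authors' deposited table (fold 1.24, s-value 0.00124), at a mean normalised count of 11755. Ier5 (ENSMUSG00000056708.6) encodes an early-response regulator that works with a protein phosphatase on heat shock factor. Ier5 fell by 0.59 ± 0.19 in the authors' deposited table (fold 0.664, s-value 1.47e-04, mean normalised count 1581). The exons of Zfp36 share 3.60% of their bases with the antisense gene Gm44710. Nextera XT libraries do not mark strand, so reads from that stretch cannot be told apart.

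Not all of the 9 changes were equally firm. In the authors' deposited table, 4 of the 9 had an s-value under 0.001 (Cxcl3, Ptgs2, Ier5, Zfp36), against 15.1% of all listed genes. A change of at least 2 standard deviations was seen for 6 of the 9, adding Btg2 and Rel, against 29.0% of the listed genes. An own false sign rate under 0.05 was reached by 8 of the 9, all but Ccl4, against 52.7%. These 9 were picked with their values known and most are abundant, so the counts describe the choice and nothing is read from them. The mean normalised counts of the 9 lay between 330 and 18216, where the whole authors' deposited table spans 13.2 to 50146.

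**Figure D3:**
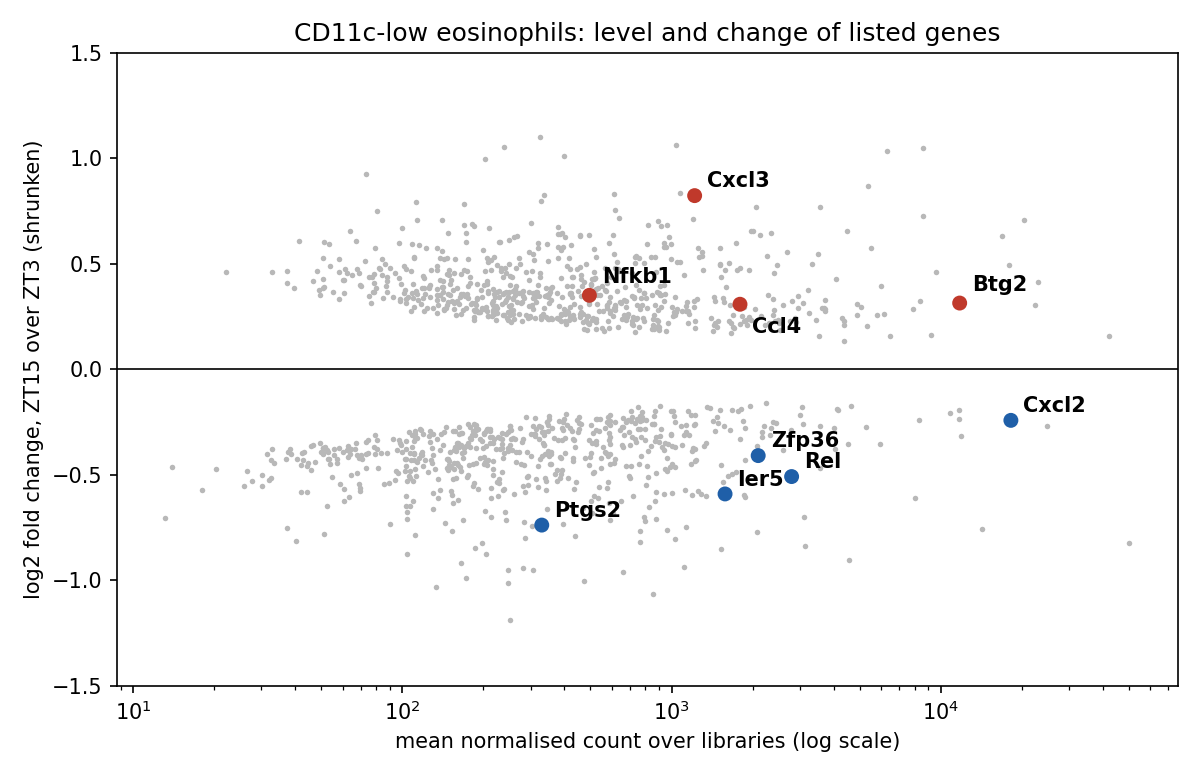
Mean normalised count (log axis) against shrunken log2 fold change at ZT15 over ZT3 for CD11c-low cells, from the authors' deposited table, with 9 genes named (red, higher; blue, lower). Grey points are other listed genes, and 19 genes beyond 1.5 in size are not drawn. Cxcl2 and Btg2 lie far to the right with small changes, and Cxcl3 and Ptgs2 lie near the upper and lower edge of the cloud.

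Levels of different genes were compared per kilobase of the longest coding transcript in GENCODE M21. In CD11c-low cells Cxcl2 was highest, with a mean normalised count of 9799 per kb from the authors' deposited table, followed by Btg2 with 4286 and Ccl4 with 2721. Cxcl3 followed with 1199 per kb, Zfp36 with 752, Ier5 with 482 and Rel with 374, again from the authors' deposited table. Nfkb1 with 120 and Ptgs2 with 74.0 per kb were lowest in the authors' deposited table. No error can be given for these levels, so the order of neighbours is not tested. With the shortest annotated coding transcript in place of the longest, Cxcl2 would be at 16426 per kb and Nfkb1 at 210 (2354 bases). Whether these transcripts are complete was not checked. For Ptgs2 the shortest has 358 bases, fewer than the 2445 of the gene's shortest annotated 3' UTR. It is therefore partial, and the 921 per kb that it gives is not a usable level.

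Genes lower at ZT15 had longer 3' UTRs than genes higher at ZT15 over the whole CD11c-low table, with medians of 1669 bases for 605 lower genes and 940 for 658 higher ones. The heptamer was present in 36.5% of the lower and 28.0% of the higher genes. Among the 9 genes here the lower ones had 3' UTRs of 774 (Zfp36) to 5418 bases (Rel) and the higher ones of 302 (Ccl4) to 2199 bases (Btg2), so the ranges overlap. Genes with the heptamer were found on both sides, 4 lower (Rel, Cxcl2, Ptgs2, Zfp36) and 3 higher (Cxcl3, Ccl4, Btg2). A kappaB match was present in 9.89% of 526 higher and 6.60% of 485 lower genes of the table that have a promoter window. The part of transcript length or of either motif in the changes was not tested.

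Around the 2 subunit genes, 3 lists of NF-kB signalling genes held 74 genes, of which 12 were listed in CD11c-low cells, 6 higher and 6 lower. How many genes the authors tested is not known, so the share listed among all tested genes cannot be given. The number listed out of a gene list, here and below, therefore does not show whether that list held more changed genes than others. Of 22 inhibitors and feedback regulators 4 were listed, 3 of them lower, in a table where 47.8% of genes were lower. With an s-value under 0.01, or a change of 2 standard deviations, 1 lower and 0 higher were left. Rnf11 (-0.53 ± 0.26), a partner of the deubiquitinase A20, Zc3h12a (-0.53 ± 0.31), an endonuclease that cuts inflammatory messages, and the atypical IkB gene Bcl3 (-0.44 ± 0.32) fell, and Tnip1 (0.32 ± 0.27), which encodes an A20-binding protein, rose in the authors' deposited table. Of 47 upstream kinases and adaptors 6 were listed, 4 higher and 2 lower. The TNF receptor gene Tnfrsf1b (0.42 ± 0.30), the adaptor genes Tab2 (0.38 ± 0.29) and Traf3 (0.37 ± 0.22) and the kinase gene Map3k3 (0.31 ± 0.23) rose in the authors' deposited table. The kinase gene Tbk1 (-0.54 ± 0.25) and the paracaspase gene Malt1 (-0.43 ± 0.27) fell there, per the authors' deposited table.

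Beyond the 3 chemokine genes above, Ccl6, a ligand of Ccr1, was the other 1 of 35 chemokine genes listed, in CD11c-low cells, at -0.21 ± 0.14 per the authors' deposited table. Cxcr2 was not listed. Of 35 other inflammatory target genes 7 were listed, 4 higher and 3 lower. The interleukin-1 genes Il1b (0.41 ± 0.15) and Il1a (-0.19 ± 0.12), whose products act on one receptor, had opposite signs in the authors' deposited table. The co-stimulatory ligand genes Cd86 (0.48 ± 0.33) and Cd80 (0.20 ± 0.13) rose, and the superoxide dismutase gene Sod2 (-0.24 ± 0.17) and Marcksl1 (-0.44 ± 0.30) fell in the authors' deposited table. Of 13 genes for prostaglandin synthesis and receptors, Ptgs2 was accompanied by Ptges3 (-0.45 ± 0.21), a co-chaperone gene that also encodes a prostaglandin E synthase, in the authors' deposited table.

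Among 51 regulators of mRNA decay 12 were listed in CD11c-low cells, 3 higher and 9 lower. Their median log2 fold change was -0.41, against 0.21 over all genes of the authors' deposited table, where 52.2% were higher. Here too, each median takes the sign of the more frequent direction. Without Zfp36 and Btg2 the count was 2 higher and 8 lower. Besides Zfp36, Ddx6 (-0.59 ± 0.25), a helicase gene of the decapping machinery, the deadenylase subunit gene Pan3 (-0.51 ± 0.22) and Zc3h12a, which is also counted among the feedback regulators, fell in the authors' deposited table. Tnrc6a (0.44 ± 0.22), which encodes a scaffold protein of microRNA silencing, rose along with Btg2 in the authors' deposited table. With an s-value under 0.01, 2 higher and 3 lower were left, and 2 standard deviations from 0 were reached by 1 higher and 3 lower. An own false sign rate under 0.05 left 3 higher and 6 lower. The list was drawn up with earlier results of these data known, so its count is no independent evidence of a direction. None of the 51 genes was listed in CD11c-high cells.

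Early-response genes were balanced, 7 higher and 7 lower among 14 listed of 48. The AP-1 gene Fos (0.77 ± 0.14) and the G-protein regulator genes Rgs1 (0.71 ± 0.19) and Rgs2 (0.60 ± 0.15) rose in CD11c-low cells, per the authors' deposited table. With Ier5, the kinase gene Pim1 (-0.38 ± 0.17) and the transcription factor gene Mafk (-0.45 ± 0.23) fell in the authors' deposited table.

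In CD11c-high cells 7 of the 259 genes in all these lists and the 10 were listed, 5 higher and 2 lower. Of all 172 genes listed in these cells 54.1% were higher, and the number tested is not known here either. With Nfkbie, the syndecan gene Sdc4 (0.40 ± 0.33), Ptgs1 (0.26 ± 0.24), which encodes the constitutive cyclooxygenase, and Ccr1 (0.17 ± 0.13) rose in the authors' deposited table. The urokinase receptor gene Plaur (-0.38 ± 0.21) fell, per the authors' deposited table. Fos was listed in both tables, with 0.41 ± 0.18 for CD11c-high and 0.77 ± 0.14 for CD11c-low cells per the authors' deposited tables. Dusp6, a MAP kinase phosphatase gene, stood at -0.25 ± 0.14 and -0.26 ± 0.18, and Ccr1 at 0.17 ± 0.13 and 0.53 ± 0.20 in the authors' deposited tables. The labels do not say whether both subsets came from the same mice, so the paired values may not be independent.

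**Figure D4:**
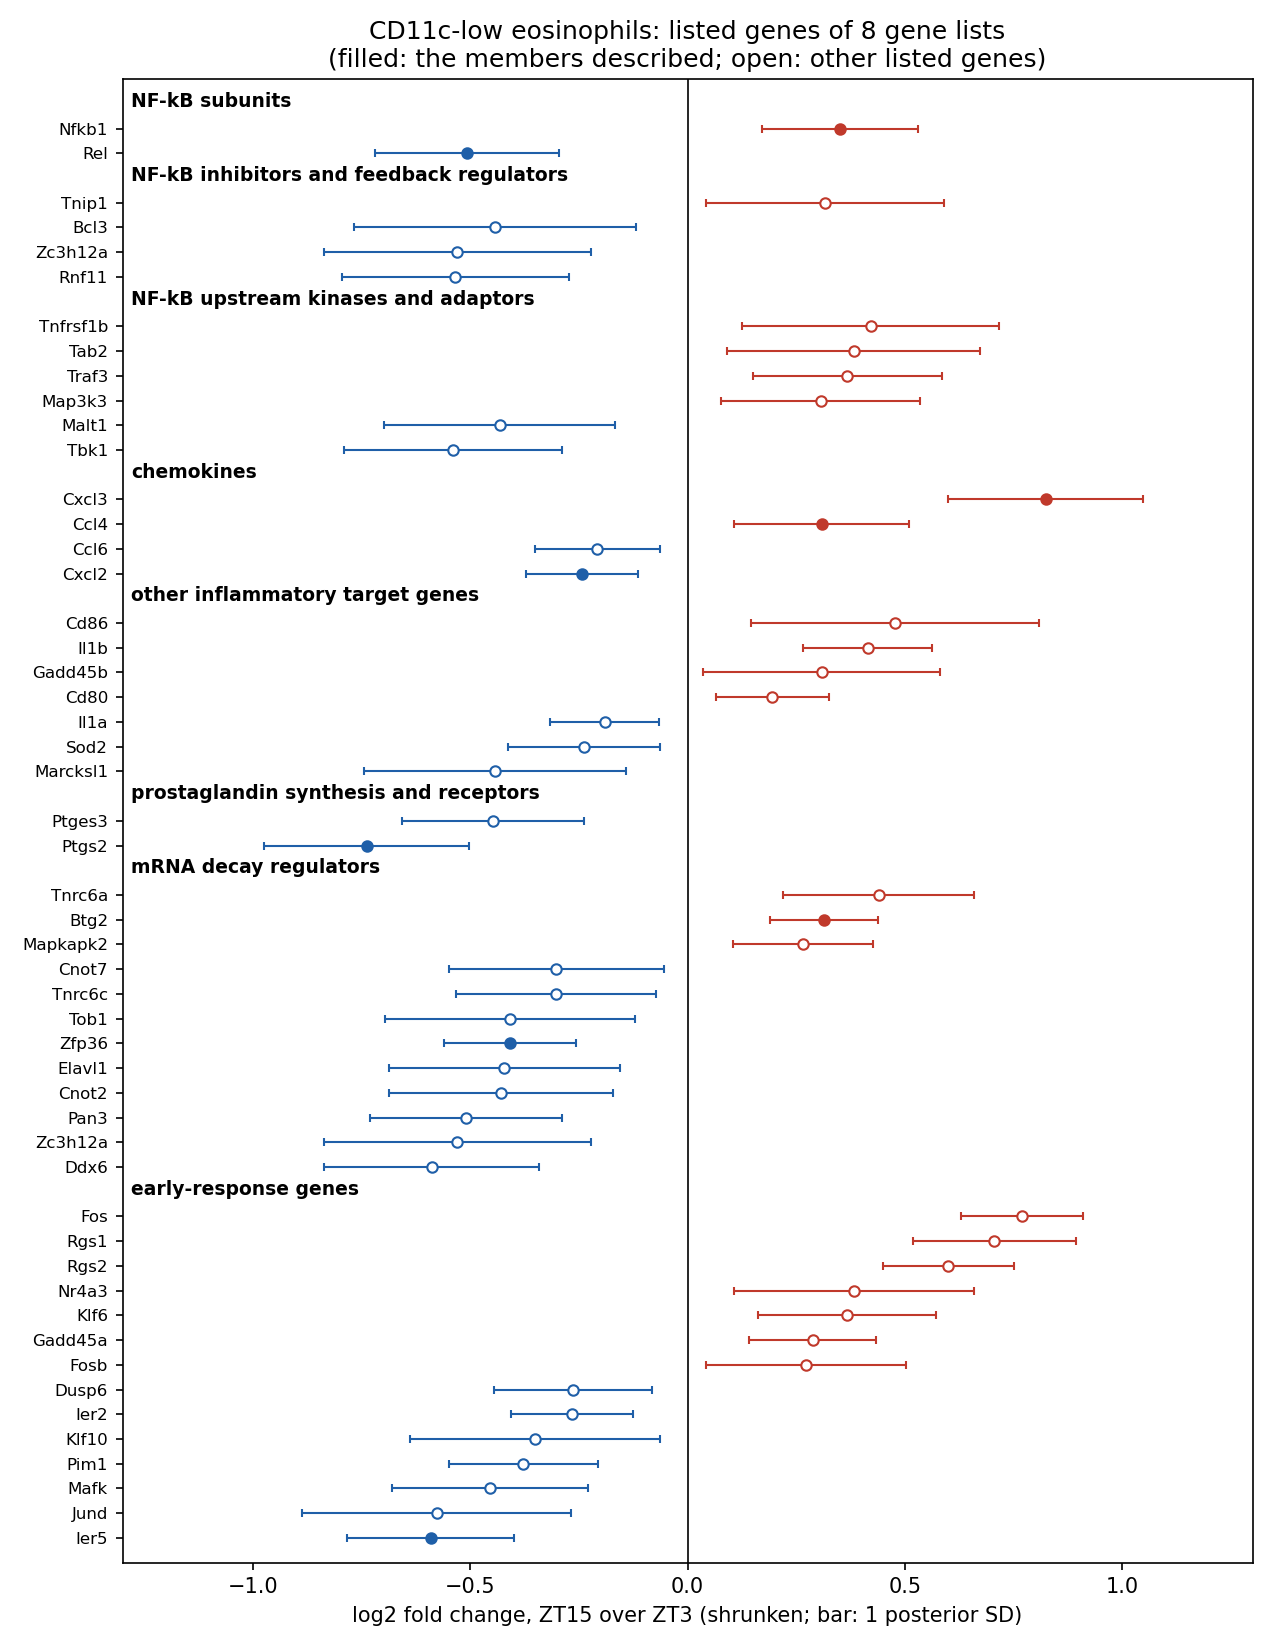
Shrunken log2 fold change at ZT15 over ZT3 with bars of 1 posterior standard deviation for each listed gene of 8 gene lists in CD11c-low cells (filled, genes of the 10; open, others; red, higher; blue, lower). Most lists have genes on both sides of 0, and 9 of the 12 mRNA decay regulators lie below it.

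Markers of other cells moved in the same comparison. Of 19 eosinophil markers 6 were listed in CD11c-low cells, 5 higher and 1 lower. They were Itgam (0.57 ± 0.17), Clec4a4 (0.47 ± 0.15), Csf2rb (0.33 ± 0.16), Alox15 (0.26 ± 0.14), Siglecf (0.23 ± 0.13) and Adgre1 (-0.29 ± 0.14) in the authors' deposited table. The granule genes Epx and Prg2 and the receptor gene Ccr3 were not listed, so the cell type could be checked only on genes that changed. Of 13 markers of neutrophils, which also make Cxcl2 and Ptgs2, none was listed in either table. A marker that did not change would not be listed, so a missing marker does not show that a cell type was absent. From the list for macrophages, monocytes and dendritic cells 4 of 18 were listed in CD11c-low cells, with Cd68 (0.52 ± 0.30) and Trem1 (0.34 ± 0.24) higher and Cd74 (-0.49 ± 0.33) and Adgre4 (-0.22 ± 0.16) lower in the authors' deposited table. Of 13 B and plasma cell markers Bank1 (0.32 ± 0.15) and Ighm (0.24 ± 0.20) were higher in CD11c-low cells and Xbp1 (0.41 ± 0.35) in CD11c-high cells, per the authors' deposited tables. The 1340 genes listed in CD11c-low cells also held 14 variable segments of immunoglobulin genes. The 172 listed in CD11c-high cells held 9 variable or joining segments. The mast cell and basophil marker Hdc, 1 of 9, was higher in both subsets, with 0.58 ± 0.20 in CD11c-low and 0.24 ± 0.19 in CD11c-high cells per the authors' deposited tables. Gzma, 1 of 13 markers of T, NK and innate lymphoid cells, was higher in CD11c-low cells (s-value 3.83e-07, mean normalised count 30.4) in the authors' deposited table, where its fitted log2 value of 20.99 is too large to be read as a fold. Krt18, 1 of 12 epithelial markers, stood at -0.35 ± 0.24 in the authors' deposited table. No marker of stroma, endothelium and nerve, or of red cells and platelets, was listed. The part of other cells in the changes of the 10 genes was not tested.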

How the data were processed

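The 2 tables that the authors deposited, 1 for each CD11c subset, compare ZT15 with ZT3. The submitters' processing notes name STAR 2.7.10b, DESeq2 1.38.3 and GRCm39 but no role for any. Counting, annotation and shrinkage were not given in the sources used here. The tables, per the file headers, hold a mean normalised count (a signal averaged over libraries), a log2 fold change with its standard error, and an s-value. The error is read here as a posterior standard deviation. The s-value is a score between 0 and 1 that the authors deposited for each gene. The direction was taken from the tables' names. The depth of single libraries is unknown. No label says that libraries came from separate animals, so the errors may reflect technical spread.

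The members and gene lists were chosen with earlier results of these data known. Named genes are the 10 members, up to 6 listed genes of each pathway list and table, by s-value, and every listed cell type marker. With Python 3.11.15, pandas 2.3.3 and Biopython 1.88, listed genes were counted, false sign rates recovered from successive s-values, and motifs searched. The recovery and the search were tested on simulated data. For the rates these data were made with the same running mean, so only the computation was tested. The recovery assumes that no gene ranked between listed ones is missing from the list. Counts were repeated with other thresholds, motifs and 3' UTRs.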

Additional observations from a re-analysis of the deposited data

How the results depend on the processing

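Of the 9 genes listed in CD11c-low cells, 4 were left at an s-value under 0.001, and between 6 and 9 under the other 5 settings: an s-value under 0.01 (8), an own false sign rate under 0.05 (8), a change of at least 0.3 (8), a mean count of at least 50 (9) and 2 standard deviations from 0 (6). In CD11c-high cells the 1 listed gene, Nfkbie, passed the mean count of 50, and 0 genes were left with an s-value under 0.01 or 0.001, an own false sign rate under 0.05, a change of at least 0.3 or 2 standard deviations. With 1 mismatch allowed between the first GGG and the final CC, a kappaB match was found in 5 genes instead of 4, adding Btg2. The share of all windows then rose from 4.51% to 17.7%. The heptamer in 7 genes became 5 with the nonamer, 9 with the pentamer ATTTA and 7 with the shortest annotated 3' UTR, where the shares of all genes were 7.67%, 65.3% and 18.2%. The 9 lower mRNA decay regulators became 3, 1 and 3 at an s-value under 0.01, under 0.001 and at 2 standard deviations, and the 3 higher became 2, 0 and 1. No paired analysis was possible because the tables hold no column for a library, and for the same reason no replicate was left out. These settings select among listed genes and leave each gene's fold change as deposited.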
